A study of Saccharomyces cerevisiae with 12 samples.

Results

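HXT2, HXT4, HXT5, HXT6 and HXT7 are 5 hexose transporter genes of the budding yeast Saccharomyces cerevisiae. They were taken by their systematic names (YMR011W, YHR092C, YHR096C, YDR343C and YDR342C) from a deposited table of 6212 rows, in which each had 1 row. The table holds 12 two-colour arrays, and each array compared RNA from a treated and a control culture that shared a genotype. At alkaline pH, log-phase cells in YPD at 28 °C were brought to pH 8.0 with 16 mM KOH for 10 min, and the control received 16 mM KCl and stayed near pH 5.5. At low glucose, cells were spun down, washed with water and resuspended for 15 min in YP with 0.05% glucose, and the control was handled in the same way with 2% glucose. There were 4 arrays each of the wild type and of the snf1::KanMX mutant at alkaline pH (strain DBY4741), and 2 arrays each of the wild type and of an snf1 mutant at low glucose (strain DBY746). One snf1 array at alkaline pH has its genotype spelled snf11::KanMX.

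Hexose transporters of the Hxt family carry glucose across the plasma membrane by facilitated diffusion, and yeast changes the set it makes with the amount of sugar outside. Hxt2, Hxt4, Hxt6 and Hxt7 are known as carriers for scarce glucose, with Hxt6 and Hxt7 of high affinity and nearly identical protein sequence, while Hxt5 is usually described as of intermediate affinity and is made in slowly growing or non-growing cells. With plentiful glucose, repressors such as Mig1 hold several of these genes down. Snf1, the yeast AMP-activated protein kinase, acts against Mig1 when glucose runs low.

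Each value is a log2 ratio, treated against control, so that 1 is a doubling and 0 is no difference. A ratio describes a response and says nothing of how abundant a transcript was. The log base is taken as 2 because the sources used here do not state it, and the direction follows the order of the array titles. Between 4056 and 5597 genes had a value per array, and the Pearson correlation over genes between arrays of 1 group ran from 0.683 to 0.953. Alkaline arrays of the wild type with the numbers 3 and 4 stood apart from numbers 1 and 2 for HXT2 and HXT5, as described below. The alkaline arrays of the mutant also split by number over all genes. Arrays 1 and 2 correlated at 0.901 and arrays 3 and 4 at 0.837, against 0.683 to 0.742 across these pairs. SNF1 itself had a value on 1 wild type array (0.29) and 1 mutant array (0.16), both at alkaline pH, and because these are ratios within a strain they do not check the deletion. In what follows, "called" means an adjusted p-value under 0.05 in limma, corrected by Benjamini-Hochberg over all genes tested in that comparison.

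In the wild type at alkaline pH, all 5 genes rose, HXT2 and HXT7 the most among them. Of the 4979 genes tested in this comparison, 25.6% were called higher and 30% lower. HXT2, a carrier made at low glucose, gave 3.03, 3.28, 5.50 and 5.53 on arrays 1 to 4. Every array was high, but arrays 3 and 4 lay far above arrays 1 and 2. The mean of 4.33 ± 1.37 (SD, n = 4) is a 20.2-fold rise (adjusted p = 2.51e-06) and the 5th highest estimate of all genes tested. The mean of arrays 1 and 2 was 3.15, and that of arrays 3 and 4 was 2.36 higher. Arrays 3 and 4 are also the only ones deposited with 2 decimals rather than 3, and whether they were handled differently was not tested.

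HXT7, of high affinity, gave 2.74, 2.84 and 3.08 on 3 arrays and had no value on array 1. These 3 values lay close together, with a fitted rise of 2.92 ± 0.13 (SE, adjusted p = 6.16e-08), the 32nd highest. HXT6, its neighbour on the chromosome, gave 1.66, 1.57 and 1.76 on the same arrays, all below the lowest HXT7 value. Its mean was 1.66 ± 0.10 (SD, n = 3), a 3.17-fold rise (adjusted p = 6.46e-06). HXT4 gave 1.64, 1.57, 2.19 and 1.81, with a mean of 1.80 ± 0.28 (SD, n = 4), a 3.49-fold rise (adjusted p = 1.43e-06). The HXT4 and HXT6 ranges overlapped, and neither gene showed the wide spread of HXT2. HXT5 gave 0.85, 0.67, 2.02 and 1.89, with a mean of 1.36 ± 0.70 (SD, n = 4), a 2.56-fold rise (adjusted p = 0.000536). As for HXT2, arrays 3 and 4 of HXT5 lay above arrays 1 and 2, here by 1.20. The corresponding difference was 0.40 for HXT4, 0.07 for HXT7 and 0.01 for HXT6.

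**Figure D1:**
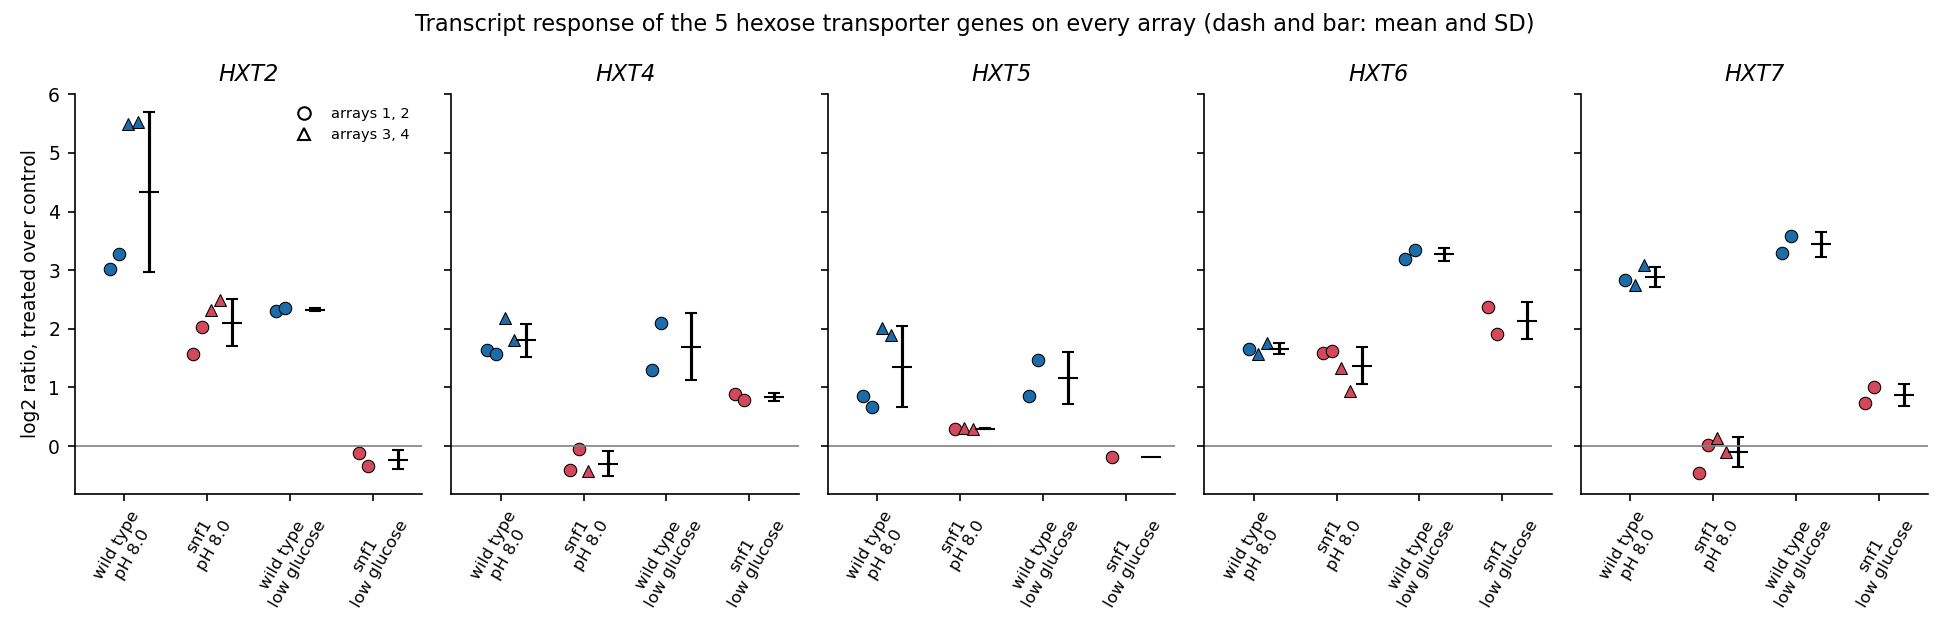
Log2 ratio of treated over control (vertical axis) of each of the 5 transporter genes on every array, by group. Points are arrays and bars mark the group mean with its SD; HXT5 had 1 value in the snf1 mutant at low glucose and has no SD there. At alkaline pH the wild type lies above the mutant on every array for HXT2, HXT4, HXT5 and HXT7, and the groups overlap for HXT6.

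In the snf1 mutant at alkaline pH, HXT2 and HXT6 rose and the other 3 genes were not called. The background was 21.7% called higher and 26.2% called lower of 4591 genes. HXT2 gave 1.58, 2.04, 2.32 and 2.48, with a mean of 2.10 ± 0.40 (SD, n = 4), a 4.30-fold rise (adjusted p = 0.000674). Even the highest mutant array was below the lowest wild type array, although HXT2 rose in both genotypes. HXT6 gave 1.59, 1.63, 1.33 and 0.94, with a mean of 1.37 ± 0.32 (SD, n = 4), a 2.59-fold rise (adjusted p = 1.33e-05). HXT6 thus rose in both genotypes, and its mutant arrays reached into the wild type range. In the mutant, the mean of arrays 3 and 4 minus that of arrays 1 and 2 was 0.60 for HXT2 and -0.47 for HXT6. The array pairs did not overlap for either gene. HXT7 gave -0.46, 0.01, 0.14 and -0.09, around 0 on every array, with a mean of -0.10 ± 0.26 (SD, n = 4, adjusted p = 0.487). HXT4 gave -0.41, -0.05 and -0.43 with no value on array 4, and HXT5 gave 0.30, 0.30 and 0.28 with no value on array 1. The fitted values of HXT4 and HXT5 had adjusted p-values of 0.0909 and 0.437. With arrays scaled to a common spread HXT4 was called lower (-0.41, adjusted p = 0.0326).

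The difference of the genotypes at alkaline pH (snf1 minus wild type) was called lower for 2 of the 5 genes, HXT7 and HXT4, against 0.753% called lower and 0.411% called higher of all 4380 genes tested. HXT7 differed by -3.01 ± 0.17 (SE, adjusted p = 1.39e-05), the 2nd lowest estimate of the 4380, with a 95% interval of -3.39 to -2.64. HXT4 differed by -2.14 ± 0.20 (SE, adjusted p = 0.000418), the 10th lowest. Both genes were called higher in the wild type and neither was called in the mutant. HXT2 differed by -2.23 ± 0.52 (SE, adjusted p = 0.0646) and HXT5 by -1.10 ± 0.34 (SE, adjusted p = 0.139), and neither was called. For HXT6 the difference was -0.29 ± 0.20 (SE, adjusted p = 0.553), and its 95% interval of -0.72 to 0.15 leaves room for a modest drop or a slight gain but not for the size seen in HXT7.

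The wild type arrays lay wholly above the mutant arrays for 4 of the 5 genes, all but HXT6, which happened for 4.41% of all genes. In a two-sided exact permutation test over arrays, HXT2 gave p = 0.0286, the smallest that 4 arrays against 4 allow, and HXT4, HXT5 and HXT7 gave p = 0.0571, the smallest that 3 against 4 allow. The HXT2 difference depended on which wild type arrays were used. Set against all mutant arrays, wild type arrays 1 and 2 alone gave -1.05 (adjusted p = 0.135), and arrays 3 and 4 alone gave -3.41 (adjusted p = 7.1e-05), and HXT5 was then called too, at -1.70 (adjusted p = 0.00558). Leaving out wild type array 1 or 2 also brought HXT2 to a call, at -2.71 (adjusted p = 0.0158) or -2.63 (adjusted p = 0.0494). Where consecutive arrays, which carry opposite dyes, were averaged as single replicates, HXT7 kept its size at -2.97 but had an adjusted p of 0.0509, and HXT4 had 0.122. The labels do not say whether such arrays share their RNA extracts, so the p-values measure the spread between arrays.

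**Figure D2:**
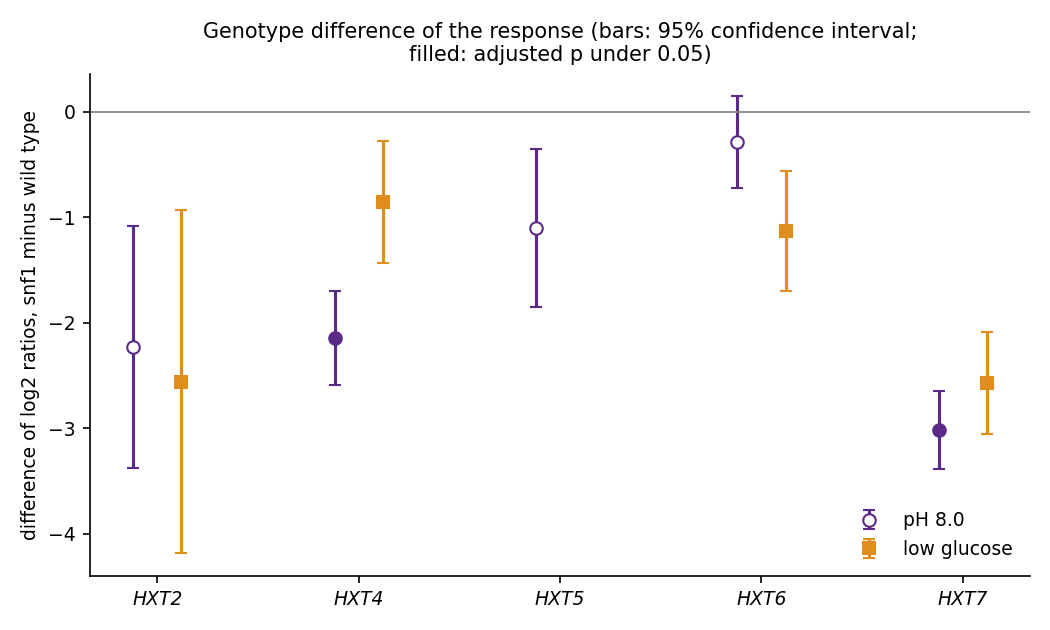
Difference of the log2 ratios, snf1 minus wild type, with its 95% interval (vertical axis) for each gene at alkaline pH and at low glucose, from limma. HXT7 lies near -3 at alkaline pH and near -2.6 at low glucose, and HXT6 spans 0 at alkaline pH; with all arrays scaled to a common spread the HXT6 difference at low glucose turns to 0.11, and HXT5 was not tested there.

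At low glucose all 5 genes rose in the wild type, and here HXT7 and HXT6 led. The background was 33.7% of 5225 genes called higher and 31.5% called lower. HXT7 gave 3.29 and 3.59, a mean of 3.44 ± 0.21 (SD, n = 2), a 10.8-fold rise (adjusted p = 7.61e-08). HXT6 gave 3.19 and 3.35, a mean of 3.27 ± 0.11 (SD, n = 2), a 9.65-fold rise (adjusted p = 1.68e-07). The ranges of this near-identical pair overlapped, unlike at alkaline pH, where HXT7 lay above HXT6 throughout. HXT2 gave 2.31 and 2.35, a 5.02-fold rise (adjusted p = 0.00213), and both arrays were below every wild type array at alkaline pH. HXT4 gave 1.29 and 2.10, a 3.24-fold rise (adjusted p = 1.64e-05), and HXT5 gave 0.85 and 1.47, a 2.23-fold rise (adjusted p = 0.0077). HXT5 had the lowest wild type mean of the 5 under both treatments, with a range that overlapped that of its neighbour in the order. Without wild type array 2 the HXT5 rise was no longer called (adjusted p = 0.159). The wild type low glucose arrays had the widest spread of log ratios over all genes, with SDs of 1.13 and 1.17 against 0.791 and 0.740 in the mutant, and with all arrays scaled to a common spread HXT2 (1.47, adjusted p = 0.0538) and HXT5 (adjusted p = 0.0862) were not called.

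In the snf1 mutant at low glucose, 3 of the 4 genes tested rose, against 28.9% of 3703 genes called higher and 16.9% called lower. HXT6 gave 2.37 and 1.92, a mean of 2.14 ± 0.32 (SD, n = 2), a 4.41-fold rise (adjusted p = 1.12e-05). HXT7 gave 0.73 and 1.01, a 1.83-fold rise (adjusted p = 0.00116), and HXT4 gave 0.88 and 0.79, a 1.79-fold rise (adjusted p = 0.00393). HXT6 was thus the most responsive of the 4 in the mutant, clear of the HXT7 and HXT4 ranges, which overlapped. HXT2 gave -0.11 and -0.35 (adjusted p = 0.745), near 0 on both arrays. HXT5 had a single value, -0.19, and was not tested. Without mutant array 1, HXT4 stood at 0.62 and was not called. That fit had 1 mutant array left, and the HXT4 values on the 2 arrays were close.

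The genotype difference at low glucose was called lower for 4 of 4 genes tested, against 13% of 3651 genes called lower and 27.6% called higher. HXT7 differed by -2.57 ± 0.22 (SE, adjusted p = 2.51e-05) and was called in all of the alternatives tried. HXT2 differed by -2.56 ± 0.74 (SE, adjusted p = 0.0164), HXT6 by -1.13 ± 0.26 (SE, adjusted p = 0.00527) and HXT4 by -0.86 ± 0.26 (SE, adjusted p = 0.0227). The wild type arrays lay above the mutant arrays for all 4 genes, as they did for 27.1% of all genes. Without any 1 of the 4 low glucose arrays, HXT2 stood between -2.68 and -2.43 and was not called, in fits that left 1 array in a group. The HXT2 values at low glucose lay close together within each genotype, with SDs of 0.03 in the wild type and 0.17 in the mutant. The SE of HXT2 rests on a common variance over all groups, which includes the wild type at alkaline pH (SD 1.37). The lost call therefore does not show that the low glucose values of HXT2 were widely spread. Without wild type array 2 or mutant array 2, HXT4 (adjusted p = 0.246 and 0.172) and HXT6 (adjusted p = 0.0514 and 0.0628) were not called. With the arrays scaled to a common spread, HXT6 turned to 0.11 (adjusted p = 0.787) and HXT4 and HXT2 stood at -0.21 (adjusted p = 0.584) and -1.72 (adjusted p = 0.168), while HXT7 stayed called. The all-gene median of this difference was 0.18, and the median over the 4 genes was -1.84.

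HXT6 and HXT7 are neighbours on the chromosome, and their near-identical sequence means that spotted probes may share signal. Probe sequences were not examined. The deposited ratios of the pair nevertheless differed on the same arrays. HXT6 minus HXT7 was -1.18, -1.17 and -1.32 in the wild type at alkaline pH, with HXT7 ahead on each array. In the mutant at alkaline pH it was 2.05, 1.62, 1.19 and 1.03, with HXT6 ahead on each. The groups did not overlap, and the means of -1.22 ± 0.08 (SD, n = 3) and 1.47 ± 0.46 (SD, n = 4) differed by 2.69 (two-sided exact permutation p = 0.0571, the smallest possible here). At low glucose the pair was nearly level in the wild type (-0.10 and -0.24), and HXT6 was ahead in the mutant (1.63 and 0.91).

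**Figure D3:**
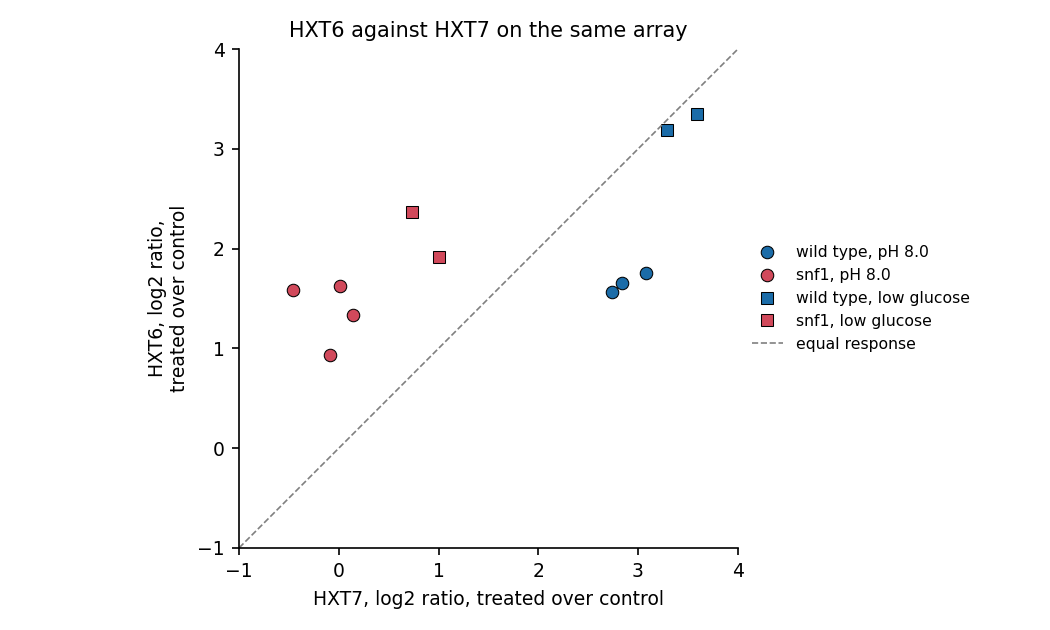
HXT6 (vertical axis) against HXT7 (horizontal axis) on the same array, as log2 ratios of treated over control. Points are arrays, with colour for genotype and shape for treatment, and the dashed line marks an equal response. Points lie below the line on every wild type array with both values and above it on every snf1 array.

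The order of the responses changed with the group. In the wild type at alkaline pH it ran HXT2, HXT7, HXT4, HXT6, HXT5, and the only neighbours whose ranges did not overlap were HXT7 and HXT4. In the mutant at alkaline pH it ran HXT2, HXT6, HXT5, HXT7, HXT4, and the 2 pairs from HXT6 to HXT5 and from HXT5 to HXT7 did not overlap. At low glucose the wild type order was HXT7, HXT6, HXT2, HXT4, HXT5, with gaps on both sides of HXT2. The mutant order was HXT6, HXT7, HXT4, HXT5, HXT2, with gaps below HXT6 and between HXT4 and HXT5. HXT2 thus had the highest mean of the 5 at alkaline pH and the lowest in the mutant at low glucose. In each case its range overlapped that of the adjacent gene in the order, which in the mutant at low glucose was the single HXT5 value. HXT5 kept the last place in the wild type.

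**Figure D4:**
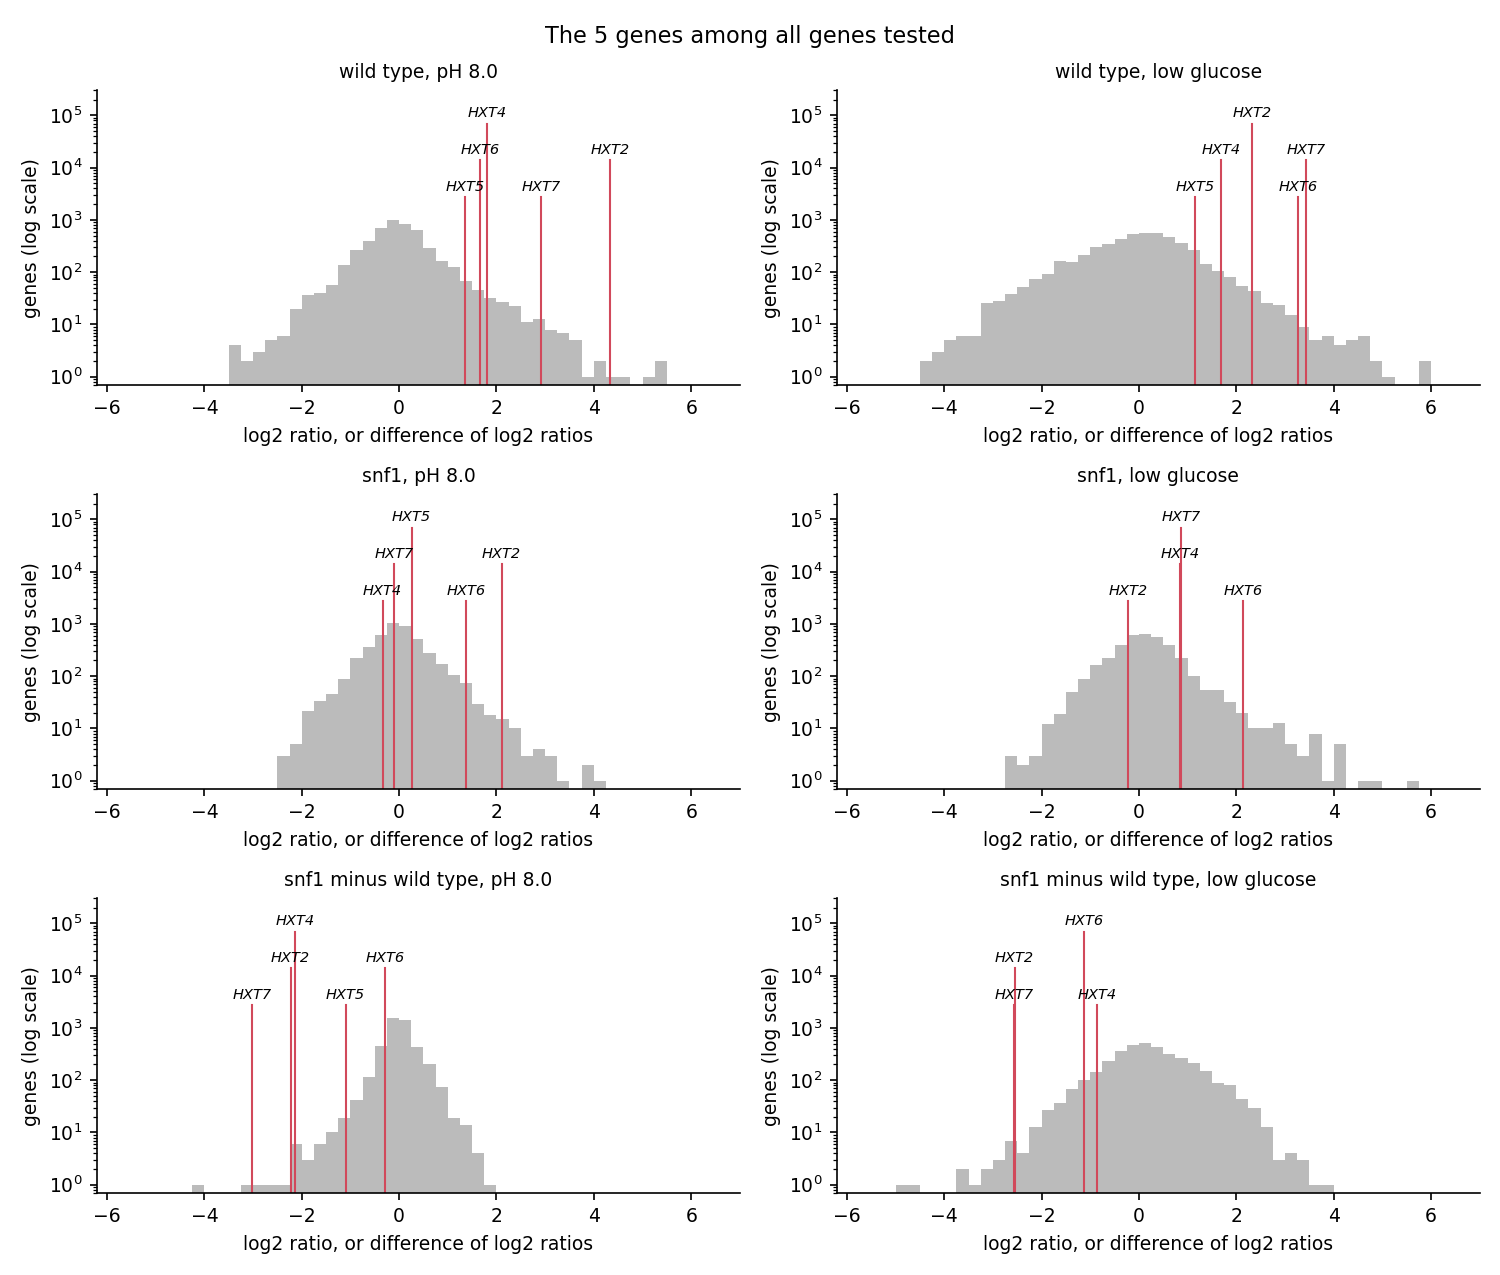
Distribution of the estimates of all genes tested (grey histogram, number of genes against log2 estimate) in each group of arrays, with the 5 transporter genes marked. In the wild type all marked genes lie to the right of the bulk of genes, and in the mutant several lie within it.

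Set against each other within a genotype, the treatments also differ in strain, DBY4741 at alkaline pH and DBY746 at low glucose, so treatment and strain cannot be told apart. In the wild type (alkaline minus low glucose) 20.9% of 4825 genes were called higher and 24.3% lower. HXT2 was higher at alkaline pH by 2.01 ± 0.64 (SE, adjusted p = 0.0258), a call lost without any 1 of alkaline arrays 3 and 4 or low glucose arrays 1 and 2 (adjusted p from 0.0503 to 0.134). HXT6 was lower by -1.61 ± 0.23 (SE, adjusted p = 0.000509), and not called with scaled arrays (-0.34, adjusted p = 0.302). HXT7 differed by -0.52 ± 0.20 (SE, adjusted p = 0.0551), which turned to 0.85 (adjusted p = 0.0423) with scaled arrays and was called at -0.65 (adjusted p = 0.0359) without alkaline array 4. HXT4 differed by 0.11 (adjusted p = 0.719), or 0.81 (adjusted p = 0.0298) with scaled arrays. Only the HXT6 call in the wild type survived leaving out each array in turn. In the mutant, 3.34% of 3290 genes were called higher, and HXT2, at 2.33 ± 0.64 (SE, adjusted p = 0.029), was the highest estimate of all. HXT4 (-1.18), HXT7 (-0.97) and HXT6 (-0.77) were called lower, against a background of 13.8%. All 4 calls in the mutant were lost without low glucose array 1 (adjusted p = 0.178 for HXT2, 0.129 for HXT4, 0.0927 for HXT7 and 0.403 for HXT6), and HXT2, HXT6 and HXT7 also without array 2 (0.167, 0.0614 and 0.076). HXT2 and HXT6 were also not called without mutant alkaline array 3 (0.0507 and 0.0532) or array 4 (0.0701 and 0.0562).

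The genotype difference itself was tested for a change between the treatments, with 18.4% of 3231 genes called lower and 8.23% called higher. HXT4 was called, at -1.28 ± 0.33 (SE, adjusted p = 0.0164), so its genotype difference was larger at alkaline pH. The call was lost without wild type low glucose array 1 (adjusted p = 0.118) or mutant low glucose array 1 (0.0891). HXT6 (0.84 ± 0.32 SE, adjusted p = 0.0784), HXT7 (-0.44 ± 0.28 SE, adjusted p = 0.26) and HXT2 (0.33 ± 0.91 SE, adjusted p = 0.821) were not called. With scaled arrays HXT7 was called at -1.88 (adjusted p = 0.0158). Without mutant alkaline array 4, HXT6 was called at 1.03 (adjusted p = 0.0174). With wild type alkaline arrays 1 and 2 alone, HXT2 was called at 1.51 (adjusted p = 0.0231).

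Of the 13 other hexose transporter genes listed, HXT8 and HXT14 had no value. HXT3, a low-affinity carrier and near neighbour of HXT6, rose by 0.77 in the wild type at alkaline pH (adjusted p = 0.000355) and fell by 0.31 in the mutant (adjusted p = 0.03), where the call was lost without any 1 of the 4 arrays (adjusted p from 0.0501 to 0.147). Its genotype difference of -1.08 ± 0.16 (SE, adjusted p = 0.00919) was the only one of 7 tested that was called. Of all genes, 0.753% were called lower in that comparison. The HXT3 difference had an adjusted p of 0.0594 without wild type alkaline array 4. HXT1, the main low-affinity carrier, which lies between HXT4 and HXT5 with AHT1, fell by 1.70 in the wild type (adjusted p = 8.46e-06) and by 1.85 in the mutant (adjusted p = 1.8e-05) at low glucose. HXT1 therefore moved against its neighbours HXT4 and HXT5 in the wild type. At alkaline pH 1 of 9 other transporters was called higher and 3 lower in the wild type, where 25.6% and 30% of all genes were. In the mutant 6 of 8 were called lower, against 26.2% of all genes, but only the call on HXT1 survived leaving out each array in turn. The calls on HXT9 (adjusted p = 0.158 and 0.134), HXT13 (0.108 and 0.278), HXT16 (0.0753 and 0.0541) and GAL2 (0.303 and 0.167) were lost without mutant array 1 or array 2, and that on HXT13 also without array 4 (0.0504).

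Genes acting on the transporters moved in both directions. Among glucose sensors and their signalling partners, SNF3, the sensor of low glucose, rose by 1.30 in the wild type at low glucose (adjusted p = 0.000225), with a genotype difference of -1.09 (adjusted p = 0.00731). That difference was not called with scaled arrays (-0.58, adjusted p = 0.192), or without wild type array 1 (adjusted p = 0.0651) or mutant array 1 (0.0621). YCK1, YCK2, MTH1 and STD1 fell in the wild type at low glucose, by 0.91, 0.72, 0.88 and 1.15, which are 4 of 6 tested against 31.5% of all genes. Mth1 and Std1 are corepressors that act with Rgt1 on HXT promoters. STD1 had an adjusted p of 0.114 without wild type array 1. For RGT1 itself the estimates were 0.21 (adjusted p = 0.249) at alkaline pH and -0.39 (adjusted p = 0.12) at low glucose in the wild type.

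Of the 7 repressors listed, NRG1, NRG2 and MIG1 rose in the wild type at alkaline pH, by 2.02, 1.80 and 0.51, and they also rose in the mutant, by 1.58, 1.32 and 0.48. These are 3 of 7 tested in the wild type, against 25.6% of all genes, and 4 of 6 in the mutant, against 21.7%. The fourth in the mutant was MIG2, at 0.54 (adjusted p = 0.000358) against -0.01 in the wild type, with a genotype difference of 0.55 (adjusted p = 0.0579). The genotype differences of NRG1, NRG2 and MIG1 there were -0.44 (adjusted p = 0.469), -0.47 (0.365) and -0.03 (0.955), none of them called. At low glucose 3 of the 7 were called higher and 2 lower in the wild type, against 33.7% and 31.5% of all genes. The genotype difference was called lower for 3 of 5 tested and higher for 2, against 13% and 27.6%. NRG1 gave 1.92 in the wild type, with a difference of -1.25 (adjusted p = 0.0201), or -0.51 (0.41) with scaled arrays. The call on this difference was also lost without any 1 of the 4 low glucose arrays, at -1.11 to -1.38. MIG2 gave 0.38 in the wild type and -0.46 in the mutant, with a difference of -0.84 (adjusted p = 0.00256). The wild type rise of MIG2 was not called with scaled arrays (0.24, adjusted p = 0.187). It was also not called without array 1 (0.30) or array 2 (0.45), nor was the mutant fall (-0.49 and -0.44). MIG1 rose by 1.27 in the wild type and by 0.45 in the mutant, a difference of -0.82 (adjusted p = 0.00577). The MIG1 difference was -0.32 (adjusted p = 0.346) with scaled arrays, and had an adjusted p of 0.066 without wild type array 2 and 0.0608 without mutant array 1. The mutant rise was lost without either of its arrays (0.0752 and 0.246). The corepressor genes TUP1 and CYC8 fell by 1.61 and 1.11 in the wild type at low glucose, and were at -0.26 and 0.03 in the mutant, where neither was called.

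The 4 hexose kinase genes, whose products phosphorylate the sugar once it is inside, were all called higher at alkaline pH in both genotypes, against 25.6% of all genes in the wild type and 21.7% in the mutant. HXK1 gave 3.62 in the wild type and 2.35 in the mutant, a difference of -1.27 ± 0.17 (SE, adjusted p = 0.00282). That difference was not called with scaled arrays (-0.99, adjusted p = 0.123), with consecutive arrays averaged (0.441) or with wild type arrays 1 and 2 alone (0.0559). EMI2 was the other kinase gene with a called difference there, so 2 of 4 were lower, against 0.753% of all genes. The EMI2 call was lost with scaled arrays (-0.58, adjusted p = 0.347). It was also lost without wild type array 2, 3 or 4 or mutant array 1, 2 or 4 (adjusted p from 0.0868 to 0.161). At low glucose HXK1 reached 4.66 in the wild type and 4.63 in the mutant, and the difference of -0.03 ± 0.24 (SE, adjusted p = 0.923) was not called. Among genes of transporter turnover, CSR2, which codes for an arrestin-like adaptor in the breakdown of Hxt6 at the vacuole, gave 2.15, 2.01, 3.32 and 3.46 in the wild type at alkaline pH (adjusted p = 2.55e-05). Like HXT2 and HXT5, CSR2 was higher on arrays 3 and 4. In the mutant it had 2 values, 0.21 and 0.14, too few for the test. CSR2 and BUL1 (0.31) were the 2 of 4 genes of this list called higher in the wild type at alkaline pH, against 25.6% of all genes, and BUL1 was not called without array 3 (adjusted p = 0.0642) or array 4 (0.0578). ROG3, the gene of another arrestin-like protein, differed the other way. It gave 0.31, -0.10, 0.46 and 0.43 in the wild type and 1.93, 1.53, 0.76 and 1.37 in the mutant. In the mutant it alone of 3 tested was called higher, against 21.7% of all genes. The groups did not overlap, and the difference was 1.12 ± 0.22 (SE, adjusted p = 0.0328). It was not called without wild type array 2, 3 or 4 or mutant array 1, 2 or 4 (adjusted p from 0.0591 to 0.0957). At low glucose RSP5, the ubiquitin ligase gene, fell by 1.41 in the wild type (adjusted p = 0.00132; -0.89 and 0.0585 with scaled arrays). RSP5, BUL1 and ECM21 were the 3 of 5 called lower there, against 31.5% of all genes. ECM21 was not called with scaled arrays (-0.35, adjusted p = 0.203), or without wild type array 1 (-0.39) or array 2 (-0.72).

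The genes most like each transporter were those with the smallest root mean square difference in log2 ratio over at least 8 shared arrays. For HXT7 they were SUC2 (0.519), GIP2 (0.584) and JEN1 (0.752). SUC2, the gene of invertase, gave 2.76 ± 0.31 and 0.50 ± 0.29 (SD, n = 4) in the wild type and mutant at alkaline pH and 4.00 ± 0.04 and 0.92 ± 0.36 (SD, n = 2) at low glucose. For HXT6 they were NNR2 (0.260), MCR1 (0.298) and NDI1 (0.331), each of which had a positive mean in all 4 groups. MCR1 and NDI1 code for mitochondrial NADH dehydrogenases or reductases. No transporter gene of the 5 was among the nearest 3 of another: HXT6 and HXT7 differed by 1.26, and the closest pair was HXT4 and HXT5 at 0.655. For HXT2 the nearest were PUN1 (0.838), ALD4 (0.937) and RCN2 (1.14), for HXT4 VID24 (0.570), GPT2 (0.585) and TMC1 (0.631), and for HXT5 UBP11 (0.318), MCH4 (0.346) and SDS22 (0.396). ALD4, a mitochondrial aldehyde dehydrogenase, shared the HXT2 order of groups, with 3.03 in the wild type and 1.42 in the mutant at alkaline pH and 1.93 and -0.21 at low glucose.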

How the data were processed

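The deposited table, a series matrix, gives 1 log ratio of treated over control per gene and array, taken here as log2; the base, the normalization and the direction are not given in the sources used here, and arrays of opposite dye correlated positively (lowest r = 0.539). Per the labels' protocols, 8 µg of total RNA was labelled by an indirect dUTP method primed with oligo(dT), and the authors dropped spots whose diameter was below 120 µm or whose Cy3 and Cy5 intensity was below 100 units. Array medians lay between -0.065 and 0.112, and no further normalization was applied. Of the 6212 rows, 5639 matched a locus tag of the R64 annotation, used for names and neighbours only.

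One linear model over the 12 arrays, with a mean for each of the 4 groups and a dye effect for each gene, was run in limma 3.58.1 (R 4.3.3; moderated variances, 4.557 prior degrees of freedom). Two-sided p-values received the Benjamini-Hochberg correction across every gene in a comparison, and 0.05 was the threshold. Genes entered a comparison if at least 3 of 4 arrays (alkaline pH) or 2 of 2 (low glucose) of each group compared had a value. Errors are SDs over arrays or SEs of limma, and the number of arrays limits the precision. Each SE rests on a common variance per gene over all groups, so a wide spread within any group enlarges it in every comparison. The fit was tested on simulated data. The dye effect of the 5 genes ran from -0.26 to 0.03, with adjusted p-values of 0.553 or more.

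The genes named are the 5 transporters, some of the called members of 6 pathway lists, and the 3 standard-named genes nearest to each transporter. No called member of the list of the Snf1 complex and its phosphatase is named. Some uncalled members of those lists were named after their values were seen. The members and lists were chosen with earlier results of these data known. Between the genotypes, correlations of same-numbered deviations from the group means ran from -0.386 to 0.0701. They cannot decide whether replicate numbers pair arrays, because dye effects were left in the deviations. Arrays 1 and 2 carry opposite dyes in the 2 genotypes. Alternatives changed the dye term, scale, centring, filter, samples fitted, replicate block, consecutive arrays and each array in turn; the splits by array pair and the HXT6 against HXT7 permutation test were chosen after seeing the data. Promoter motifs were planned and are not analysed here.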

Additional observations from a re-analysis of the deposited data

Results flagged for a closer look

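These results stand out because the response differed between the genotypes, or the genotype difference between the treatments, in a test of that difference by limma. At alkaline pH, snf1 minus wild type was -2.14 for HXT4 and -3.01 for HXT7. At low glucose it was -2.56 for HXT2, -0.86 for HXT4, -1.13 for HXT6 and -2.57 for HXT7. The genotype difference of HXT4 was more negative at alkaline pH than at low glucose by -1.28. No array of a group of 4 lay far enough from the others to be singled out for any of the 5 genes.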

How the results depend on the processing

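The 41 results on the 5 genes were recomputed under 637 alternative settings in all. Of these, 559 kept the side of the threshold, 60 lost the call, 16 gained one and 2 reversed. A change of sign was counted as reversed only where either fit made a call, and otherwise stayed within the 559. With all arrays scaled to a common spread, HXT6 at low glucose (snf1 minus wild type) went from -1.13 to 0.11 and HXT7 in the wild type (alkaline minus low glucose) from -0.52 to 0.85. Using mutant alkaline arrays 3 and 4 alone turned GAL2 to 0.36 and HXT9 to 0.024 in the mutant, where both had been called lower (-1.16 and -1.02). The cause of these changes was not tested. Of the 5 genes called in the wild type at alkaline pH, 3 were called when a value on every array was required, since HXT6 and HXT7 were then not tested. At low glucose the wild type count went from 5 to 3 with scaled arrays and to 3 with consecutive arrays averaged. For the genotype difference at alkaline pH the count went from 2 to 0 with a value on every array, where HXT4 and HXT7 were not tested, to 0 with consecutive arrays averaged, to 4 with the replicate number as a block (HXT2 -2.23, adjusted p = 0.0215; HXT5 -1.66, adjusted p = 0.0313) and to 4 with wild type arrays 3 and 4 alone. With averaged arrays limma called 0 of 4449 genes there, and 300 had an unadjusted p under 0.05. For the genotype difference at low glucose it went from 4 to 1 with scaled arrays, to 1 with averaged arrays, and lay between 1 and 4 without single arrays. For alkaline minus low glucose in the wild type it went from 2 to 1 with a value on every array (HXT6 not tested), with averaged arrays and with wild type arrays 1 and 2 alone, and lay between 1 and 2 without single arrays. In the mutant it went from 4 to 2 with the replicate block, to 0 with averaged arrays and to 2 with mutant arrays 1 and 2 alone, and lay between 0 and 4 without single arrays. For the change of the genotype difference between treatments it went from 1 to 2 with scaled arrays, where HXT7 joined HXT4, to 0 with a value on every array (HXT4 not tested), to 0 with the replicate block, to 0 with averaged arrays and to 2 with mutant arrays 1 and 2 alone, and lay between 0 and 2 without single arrays. Averaging leaves the low glucose groups 1 value each, assumed to vary like the others. Over all genes, called counts ran from 0 to 396 around 51 for the genotype difference at alkaline pH, from 506 to 1932 around 1481 at low glucose, and from 1683 to 2908 around 2766 for the wild type at alkaline pH.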
